A study of Mus with 17 samples.

Results

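The constitutive proteasome subunits are the genes that encode the standard form of the proteasome, the protease that degrades ubiquitin-tagged proteins. Their transcripts were measured in whole mouse liver by bulk RNA sequencing. The members were taken by symbol, as genes named Psma, Psmb, Psmc or Psmd with a number, leaving out the inducible subunits Psmb8, Psmb9 and Psmb10. This gave 36 of the 24940 genes in the files, 16 of the core particle (Psma and Psmb) and 20 of the regulatory particle (Psmc and Psmd). Of these, 34 passed the filter on low counts and were tested among 13204 genes, 14 in the core and 20 in the regulatory particle.

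The mice were males of the inbred strain C57BL6/JBomTac. In the western diet group, 8 mice ate western diet and drank water with fructose at 42 g/L for 52 weeks, which per the labels brings on an advanced form of fatty liver disease. In the chow group, 9 mice matched for age ate standard chow and drank plain water. All were fasted overnight, and the labels do not say outright that each library is a separate mouse, as is assumed here; if some are not, p-values measure only the spread between samples. Diet was read from the treatment label, since the source name gives western diet for every sample.

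The core particle is a barrel of stacked rings. Outer alpha rings control entry, and inner beta rings carry the cutting sites. The regulatory particle caps the barrel. Its base unfolds the substrate with a ring of ATPases, and its lid removes the ubiquitin chain before the substrate enters. Hepatocytes use the proteasome to turn over short-lived and damaged proteins, and it makes peptides for antigen presentation. When proteasome activity runs short, the transcription factor Nfe2l1 is known to raise the genes of core and regulatory particle together.

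Libraries held 3604212 to 8818386 counts on western diet and 5231166 to 9071909 counts on chow. Western diet replicate 5 and chow replicate 2 stood apart in transcripts of pancreatic acinar cells, with summed levels over 8 markers of 4121 and 12523 CPM (counts scaled to the size of the library). The remaining libraries held 133 to 291 CPM on western diet and 135 to 520 CPM on chow. Of 8 hepatocyte markers listed, 7 were found by symbol, and none was at 0 in any library. They fell in 2 of 7 cases, against 23.6% of all tested genes, and had a median log2 difference of −0.23. All 7 had a log2 difference below 0, against 51% of all tested genes. Their summed levels were 10597 to 16901 CPM on western diet and 13945 to 19332 CPM on chow. All 8 macrophage markers rose, with summed levels of 858 to 1300 CPM on western diet and 320 to 540 CPM on chow, and none was at 0. All 6 stellate cell and fibroblast markers and 4 of 6 lymphocyte markers also rose. Over all tested genes 24.8% rose. In whole liver, fewer cells of a type and less RNA per cell cannot be told apart, and the part of these marker shifts in the results on subunits was not tested.

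Transcripts of the constitutive proteasome were lower on western diet in nearly every subunit. Of the 34 tested members 32 fell and 2 rose, Psmd8 and Psmd10 (edgeR's quasi-likelihood test, adjusted p under 0.05 over all genes tested). Over all tested genes 23.6% fell and 24.8% rose, 3122 and 3271 genes, so that 48.4% passed in either direction, against 34 of 34 members. The log2 difference lay below 0 in 51% of all tested genes, against 32 of 34 members. The decreases were small: the members had a median log2 difference of −0.32, western diet minus chow, or 80.0% of the chow level, and lay between −0.61 and 0.25. The median of all tested genes was −0.0091. More abundant genes tended to be lower on western diet, with a Spearman correlation of −0.40 between log2 difference and mean level across all 13204 tested genes, and the median member stood at the 86.3 percentile of mean level; across the 34 members that correlation was −0.16. The part of level in the members' count was not tested. In 16 members every western diet library lay below every chow library, as was the case in 5.05% of all tested genes, and no member had every western diet library above every chow library, against 6.98% of all tested genes.

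The size of the decrease rests in part on the scaling between libraries. Scaling by library size alone moved the median log2 difference of all tested genes to 0.12 and the split of calls to 4479 genes that rose and 1621 that fell, 33.9% and 12.3% of those tested. Under that scaling 24 members fell, all of them among the 32, with 7 in the core and 17 in the regulatory particle, and the same 2 rose. Set against the median of all tested genes, which a change of scaling moves by about as much as it moves the members, the core median was −0.25 and the regulatory median −0.35. A share of all counts amounts to the same scaling by library size alone. The members held 0.410 ± 0.0115% of all counts on western diet and 0.471 ± 0.0321% on chow (SD, n = 8 and 9). Shares ran from 0.395% to 0.434% on western diet and from 0.432% to 0.523% on chow, and the ranges overlapped only through western diet replicate 2 and chow replicate 9.

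**Figure D1:**
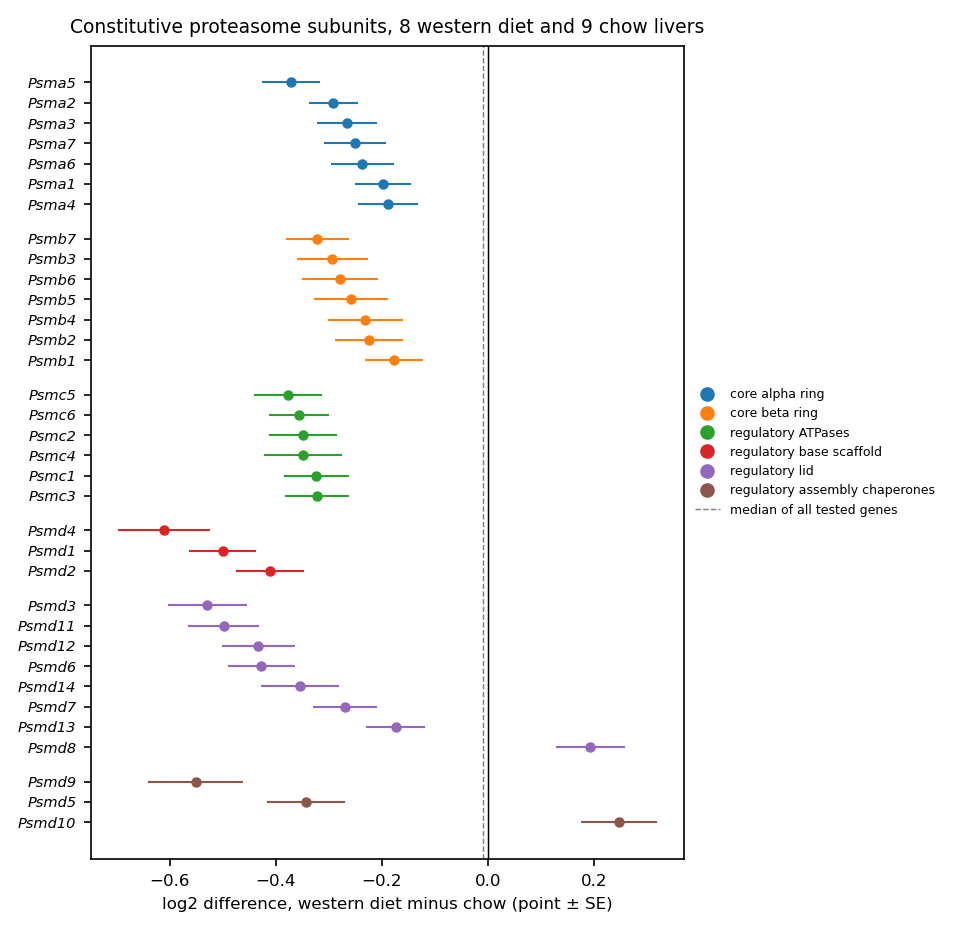
Log2 difference, western diet minus chow, of each tested constitutive subunit with its SE, grouped by place in the complex; filled points passed an adjusted p of 0.05 and the dashed line is the median of all tested genes. Points lie left of 0 for 32 of 34 members, and Psmd8 and Psmd10 lie right of it.

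In the core particle all 14 tested subunits fell and none rose (edgeR), against 23.6% and 24.8% of all tested genes. It follows that none was higher at an unadjusted p under 0.05, as 27.5% of all tested genes were. None of the 14 rose with DESeq2 or limma-voom either. Their log2 differences were alike, from −0.37 to −0.18 with a median of −0.25, which is 83.8% of the chow level. In 3 of the 14, Psma2, Psma5 and Psmb7, every western diet library lay below every chow library, against 5.05% of all tested genes.

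The alpha ring, which forms the gate of the barrel, had 7 of 7 tested members that fell, against 23.6% of all tested genes. The median log2 difference of the ring was −0.25. Psma5 fell furthest in the core: its levels were 48.3, 51.5 and 53.8 CPM (lowest, median and highest) on western diet, against 59.5, 64.5 and 75.9 CPM on chow. All western diet livers lay under all chow livers, at 1.29-fold lower (log2 difference −0.37 ± 0.054, ± SE; adjusted p = 1.51e-05). Psma1 and Psma4 were among the 3 smallest decreases of the core. Psma1 had 113, 121 and 134 CPM on western diet, against 127, 141 and 152 CPM on chow (−0.20 ± 0.053, adjusted p = 0.00456). Psma4 had 112, 119 and 131 CPM on western diet, against 122, 139 and 154 CPM on chow (−0.19 ± 0.057, adjusted p = 0.00969). In both genes the ranges of the diets overlapped, and with library size alone neither passed (adjusted p = 0.249 and 0.289). Psma6 did not pass with library size alone either (adjusted p = 0.0675).

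Among the beta subunits without a cutting site, Psmb3 fell the most. It had 54.6, 61.3 and 72.4 CPM on western diet, against 66.2, 75.8 and 86.9 CPM on chow (−0.29 ± 0.067, adjusted p = 0.00125). Psmb1 fell the least, with 117, 124 and 141 CPM on western diet, against 129, 138 and 158 CPM on chow (−0.18 ± 0.055, adjusted p = 0.0122), and it did not pass with library size alone (adjusted p = 0.375). The ranges overlapped in both genes, and the 4 beta subunits without a cutting site had a median log2 difference of −0.23.

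The 3 constitutive catalytic subunits all fell, against 23.6% of all tested genes. Psmb7, which cuts after basic residues, had 128, 147 and 161 CPM on western diet, against 165, 179 and 198 CPM on chow. No western diet liver reached the chow range, and the level was at 80.0% of chow (−0.32 ± 0.059, adjusted p = 1.76e-04). Psmb6, which cuts after acidic residues, had 100.4, 119 and 137 CPM on western diet, against 128, 141 and 167 CPM on chow (1.21-fold lower, −0.28 ± 0.072, adjusted p = 0.00331). Psmb5, which cuts after hydrophobic residues, had 65.9, 83.3 and 95.9 CPM on western diet, against 84.7, 97.4 and 109 CPM on chow (1.20-fold lower, −0.26 ± 0.069, adjusted p = 0.00442). Ranges overlapped in Psmb6 and Psmb5, the lowest Psmb5 value being that of western diet replicate 5, and with library size alone Psmb5 did not pass (adjusted p = 0.0811). On mouse assembly mm10, Psmb7 lies on chromosome 2, 38588046 to 38643952, Psmb6 on chromosome 11, 70525324 to 70527858, and Psmb5 on chromosome 14, 54614120 to 54617995, each span covering exons and introns of a protein-coding gene. The RefSeq gene table names pseudogenes of Psma5, Psmb5, Psmb6 and Psmb7, whose reads could be shared with the genes.

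The inducible catalytic subunits, which replace these 3 in the immunoproteasome, moved the other way. Psmb8 had 48.3, 69.3 and 76.3 CPM on western diet, against 23.3, 31.4 and 54.4 CPM on chow, Psmb9 had 25.2, 33.5 and 42.8 CPM on western diet, against 6.93, 12.9 and 20.1 CPM on chow, and Psmb10 had 36.1, 51.2 and 59.9 CPM on western diet, against 22.5, 33.5 and 42.4 CPM on chow. They rose 1.94-fold, 2.66-fold and 1.54-fold (adjusted p = 1.77e-05, 5.51e-07 and 4.99e-04). The ratio of each to the subunit it replaces was taken within a library, so that scaling between libraries drops out; the ratios are of counts, are not corrected for transcript length, and are read only between diets. The log2 ratio of Psmb8 to Psmb5 was −0.35 ± 0.30 on western diet and −1.59 ± 0.42 on chow (SD, n = 8 and 9), a difference of 1.24. That of Psmb9 to Psmb6 was −1.76 ± 0.37 on western diet and −3.47 ± 0.41 on chow, a difference of 1.71. That of Psmb10 to Psmb7 was −1.53 ± 0.32 on western diet and −2.48 ± 0.36 on chow, a difference of 0.95. An exact two-sided permutation test over 24310 labellings gave an adjusted p = 8.23e-05 for each of the 3 ratios, where the smallest unadjusted p it can give is 4.11e-05. Every western diet liver lay above every chow liver in the first 2 ratios, and 7 of 8 did so in the ratio of Psmb10 to Psmb7.

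**Figure D2:**
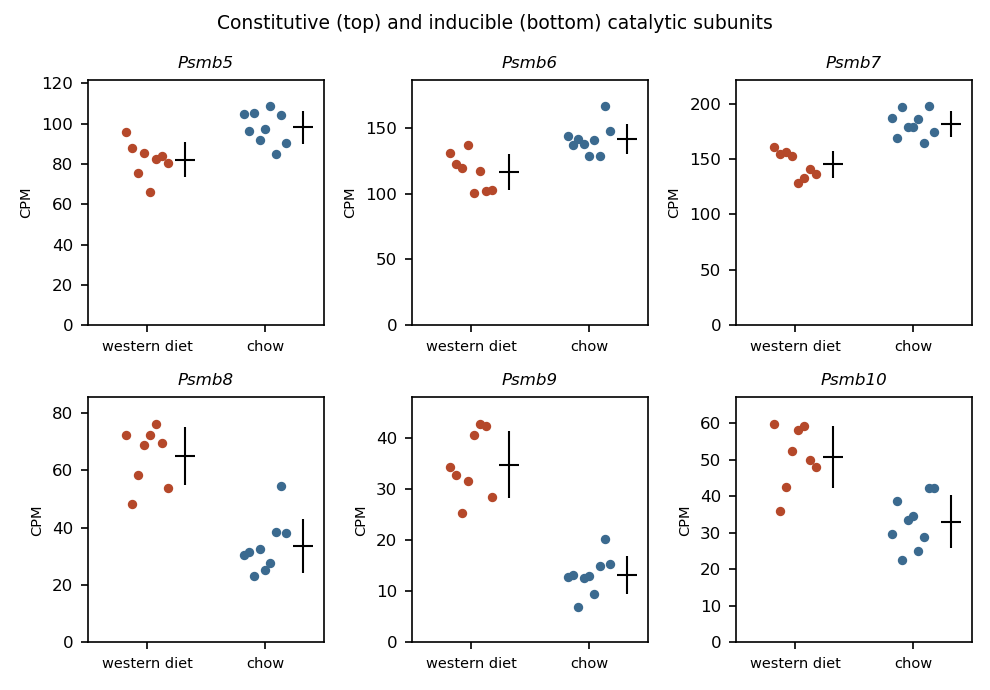
CPM of the constitutive catalytic subunits (upper row) and of the inducible subunits that replace them (lower row) in each library, western diet left and chow right, with mean ± SD as bars; each axis starts at 0. Psmb7 runs up to 161 CPM on western diet and begins at 165 CPM on chow, whereas Psmb9 begins at 25.2 CPM on western diet and runs up to 20.1 CPM on chow.

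Both core members that were not tested are known from other tissues. Psmb11, the beta subunit of the thymus, had 0 counts in all 17 libraries, which allows a level of up to 0.313 to 0.848 CPM, the level of 3 counts, in single libraries; this limit covers counting error only. Psma8, an alpha subunit of the testis and a close relative of Psma7, had 3 to 31.5 counts on western diet and 4.5 to 25 counts on chow, and reads could be shared between the relatives.

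In the regulatory particle 18 of 20 tested members fell and 2 rose, against 23.6% and 24.8% of all tested genes. The 20 members had a median log2 difference of −0.36, or 78.2% of the chow level, and a range from −0.61 to 0.25. In 13 of the 20 every western diet library lay below every chow library, against 5.05% of all tested genes. The spread among members was wider than in the core, with an SD of their log2 differences of 0.22 in the regulatory particle and 0.053 in the core. The SD of the regulatory particle includes the 2 members that rose, Psmd8 (0.19) and Psmd10 (0.25).

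The ATPases Psmc1 to Psmc6, the motor that unfolds substrates, all fell, against 23.6% of all tested genes. The 6 log2 differences were nearly the same, from −0.38 to −0.32 with a median of −0.35. Psmc5 fell most, with 96.1 ± 6.75 CPM on western diet and 124.7 ± 12.2 CPM on chow (SD, n = 8 and 9; adjusted p = 7.87e-05), and Psmc3 least, with 140, 153 and 170 CPM on western diet, against 171, 193 and 215 CPM on chow (adjusted p = 1.83e-04). In 5 of the 6 every western diet library lay below every chow library, Psmc4 being the exception, against 5.05% of all tested genes.

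The rest of the base had the lowest median log2 difference of the groups in the complex, −0.50 over 3 members, though Psmd9 and Psmd3, of other groups, fell more than Psmd1 and Psmd2. Psmd4, a receptor that binds ubiquitin chains, had 106, 123 and 135 CPM on western diet, against 152, 193 and 221 CPM on chow. All western diet livers lay below all chow livers, at 1.53-fold lower (−0.61 ± 0.086, adjusted p = 1.02e-05), and the chow livers were more spread, with an SD of 28.4 CPM, against 10.3 CPM on western diet. Psmd1, a large scaffold protein, had 204.6 ± 11.1 CPM on western diet and 289 ± 28.3 CPM on chow (−0.50 ± 0.063, adjusted p = 2.81e-06). Psmd2, the scaffold on which shuttle factors dock, had 258 ± 16.5 CPM on western diet and 344 ± 31.3 CPM on chow (−0.41 ± 0.064, adjusted p = 2.67e-05). Neither overlapped between the diets. Psmd4 lies on chromosome 3, 95032688 to 95042614 (mm10).

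In the lid 7 of 8 members fell and 1 rose, against 23.6% and 24.8% of all tested genes. In 5 of the 8 every western diet library lay below every chow library, against 5.05% of all tested genes. Psmd3, a structural subunit, fell most, with 134, 148 and 184 CPM on western diet, against 186, 221 and 252 CPM on chow (1.44-fold lower, −0.53 ± 0.074, adjusted p = 9.25e-06), without overlap. Psmd11, Psmd12 and Psmd6, also structural, had log2 differences of −0.50, −0.43 and −0.43, and none of these 3 overlapped. Psmd14, the enzyme that cuts the ubiquitin chain off the substrate, had 60.9, 66.1 and 79.8 CPM on western diet, against 78.8, 82.5 and 107 CPM on chow (1.28-fold lower, −0.35 ± 0.073, adjusted p = 4.95e-04). Its ranges met through western diet replicate 7, which exceeded the lowest chow liver. Psmd7, its partner in the lid, had a log2 difference of −0.27 without overlap. Psmd13, a structural subunit, had 94.7, 113 and 118 CPM on western diet, against 112, 124 and 132 CPM on chow. It was the smallest decrease of the regulatory particle (−0.17 ± 0.056, adjusted p = 0.0140) and did not pass with library size alone (adjusted p = 0.418).

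Psmd8, another structural lid subunit, rose. It had 165, 191 and 221 CPM on western diet, against 151, 165 and 186 CPM on chow, 1.14-fold higher (0.19 ± 0.065, adjusted p = 0.0198). The ranges overlapped, and western diet replicates 3 and 5, with 170 and 165 CPM, lay inside the chow range. The call was lost without a filter on low counts (adjusted p = 0.0599) and kept in all 17 fits that left out 1 library. Psmd8 lies on chromosome 7, 29174187 to 29180673 (mm10).

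The 3 chaperones that help to assemble the base and leave the finished particle moved apart. Psmd9 had 50.8, 55.6 and 79.6 CPM on western diet, against 70.9, 86.9 and 104 CPM on chow (1.47-fold lower, −0.55 ± 0.089, adjusted p = 4.35e-05). Western diet replicate 3 gave the highest western diet value and was the one that reached into the chow range. Psmd5 had 48.8, 52.5 and 56.6 CPM on western diet, against 55.6, 64.7 and 85.5 CPM on chow (1.27-fold lower, −0.34 ± 0.073, adjusted p = 6.99e-04), and its ranges overlapped narrowly. Psmd10, also known as gankyrin and described as raised in liver tumours, had 21.0, 24.9 and 27.3 CPM on western diet, against 18.4, 20.5 and 24.2 CPM on chow, 1.19-fold higher (0.25 ± 0.071, adjusted p = 0.00719). Its ranges overlapped, with western diet replicate 3 lowest of its diet. Psmd10 lies on chromosome X, 140948425 to 140956711 (mm10), where the RefSeq table has it overlap Atg4a. In all 9 members overlap another gene there, among them Psmd1 with Htr2b and Psma4 with AY074887, both protein-coding, and reads of such genes can be confused. Without the chaperones the regulatory particle had 16 members that fell, 1 that rose and an unmoved median of −0.36. Of all tested genes 23.6% fell and 24.8% rose.

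**Figure D3:**
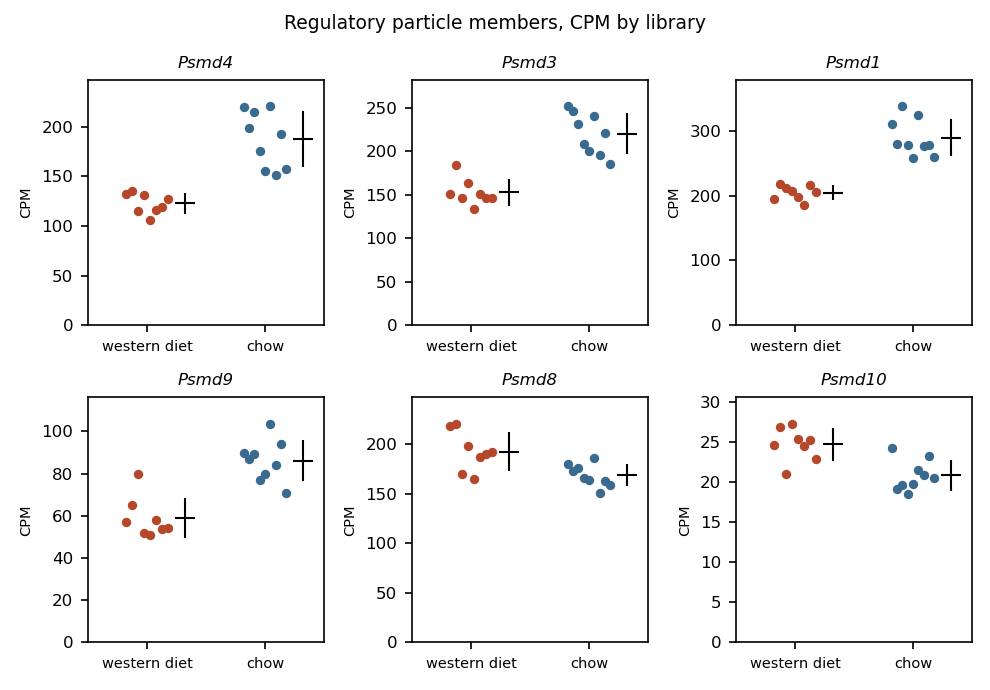
CPM of 6 members of the regulatory particle in each library, western diet left and chow right, with mean ± SD as bars; each axis starts at 0. Psmd4, Psmd3 and Psmd1 separate the diets, in Psmd9 1 western diet library lies among the chow livers, and Psmd8 and Psmd10 are higher on western diet with overlap.

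Set side by side, the core had a median log2 difference of −0.25 and the regulatory particle one of −0.36, a gap of 0.10. No test was made between the particles, whose members were chosen with earlier results known. By library, the mean log2 level of the 14 core members minus the chow mean was −0.42, −0.25 and −0.10 (lowest, median and highest) on western diet, against −0.12, −0.020 and 0.10 on chow. That of the 20 regulatory members was −0.48, −0.32 and −0.22 on western diet, against −0.13, −0.017 and 0.16 on chow. The diets thus did not overlap in the regulatory mean, and in the core mean western diet replicate 1, the shallowest library, reached above the lowest chow library. The core mean minus the regulatory mean within a library was 0.078 ± 0.068 on western diet and 0.00 ± 0.072 on chow (SD, n = 8 and 9), so the difference between diets in this gap was about as large as the spread between mice and its ranges overlapped.

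Chow livers differed widely in how many subunits lay below the chow median. Of the 34 tested members, none lay below the chow median in chow replicates 1 and 6 and 1 did in chow replicate 3, whereas 27, 31 and 28 did in chow replicates 5, 7 and 9. Over all tested genes, the share below the chow median was alike in the chow livers, from 42.9% to 45.4%. The median was taken from the chow livers themselves, which fixes their mean share at about 44.4%. Western diet livers had no part in it, so these shares are not compared between diets. Western diet livers had 30 to 33 members below the chow median, which restates the decrease by diet, against 49.6% to 51.1% of all tested genes. Western diet replicate 5 had the lowest core and regulatory means. It stood apart in pancreatic transcripts, had the highest summed lymphocyte markers of its diet, 123 CPM, and the lowest summed hepatocyte markers, 10597 CPM; their part in its means was not tested. Without it and chow replicate 2, the same 32 members fell and the medians were −0.23 in the core and −0.35 in the regulatory particle. Chow replicate 8 had the highest core mean of all libraries and a regulatory mean close to 0. The coefficient of variation between mice had a median of 7.84% on western diet and 8.16% on chow over the tested members, against 14.6% on western diet and 14.9% on chow over all tested genes; levels were not matched between these sets.

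**Figure D4:**
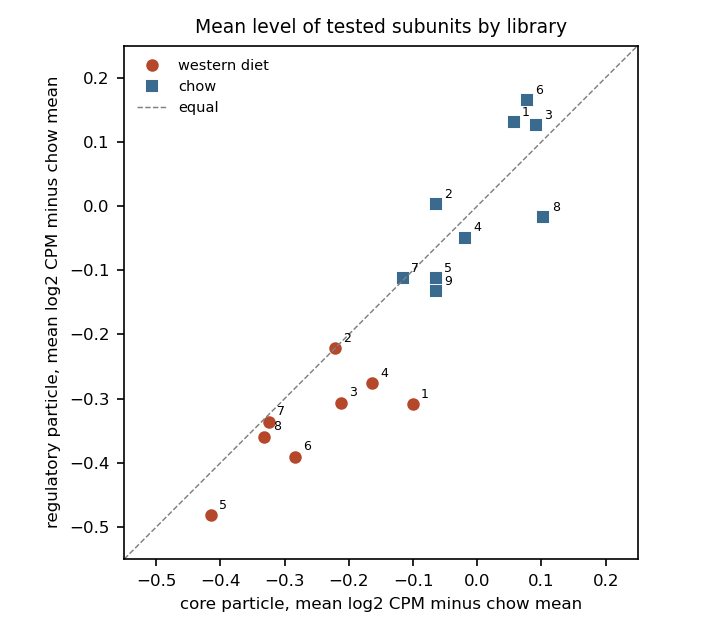
Mean log2 CPM of the tested subunits of the core (horizontal) and regulatory particle (vertical) in each library, both minus the chow mean, with the replicate number beside each point and a dashed line where both are equal. Western diet livers lie from −0.48 to −0.22 on the vertical axis and chow livers from −0.13 to 0.16.

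The members lie on 16 chromosomes. Across the 34 tested members the log2 difference had a Spearman correlation of −0.30 with the genomic span of the gene, against −0.018 across 12954 tested genes with a position; these points share the same 17 libraries and are given as a description.

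Around the proteasome itself, 22 of 40 tested genes of the pathway fell, 5 rose and 13 did not pass, in 9 lists of genes outside the rule. Over all tested genes 23.6% fell and 24.8% rose. The counts of single lists below stand beside these shares, and in lists this short they are given as a description. The counts of lists were not repeated with library size alone. The lists, like the members, were drawn up with earlier results of these data known, and their median log2 difference was −0.20.

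Of 4 genes that control the proteasome genes, 3 fell and 1 rose. Ddi2, the protease that activates Nfe2l1, had 168, 225 and 236 CPM on western diet, against 296, 347 and 401 CPM on chow, without overlap and 1.63-fold lower (−0.70 ± 0.078, adjusted p = 5.82e-07). Ngly1, which strips sugars from Nfe2l1 and is needed for its activity, had 78.0 ± 4.46 CPM on western diet and 107 ± 11.5 CPM on chow (−0.46 ± 0.064, adjusted p = 8.25e-06), also without overlap. Nfe2l1 itself, named here after its values were seen, had 249.5, 299 and 308 CPM on western diet, against 298, 321 and 371 CPM on chow (−0.16 ± 0.062, adjusted p = 0.0336). It lost its call without western diet replicates 5 or 6 or chow replicates 1, 3 or 7, each left out alone (adjusted p up to 0.0801), without western diet replicate 5 and chow replicate 2 together (adjusted p = 0.0841), and with library size alone (adjusted p = 0.598). Nfe2l2, which answers oxidative stress and is known to act on some proteasome genes, rose 1.31-fold, with 153 ± 17.5 CPM on western diet and 117 ± 17.5 CPM on chow (adjusted p = 0.00140).

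Caps that can take the place of the regulatory particle differed among themselves. Psme4, a large activator, had 167, 189 and 227 CPM on western diet, against 238, 278 and 376 CPM on chow, without overlap (1.53-fold lower, −0.61 ± 0.095, adjusted p = 2.76e-05). Psme3, the nuclear cap, was 1.19-fold lower (adjusted p = 6.82e-04) and did not pass with library size alone (adjusted p = 0.0702). Psme2, part of the cap that interferon induces, had 59.8 ± 4.84 CPM on western diet and 55.9 ± 5.21 CPM on chow (0.095 ± 0.064, adjusted p = 0.237), and rose with library size alone (0.22, adjusted p = 0.00949). In this list, which holds caps and an inhibitor of the core, 2 of 5 genes fell and 3 did not pass.

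The other regulatory subunits had symbols outside the rule. Adrm1, a ubiquitin receptor of the base, had 78.0 ± 9.33 CPM on western diet and 105 ± 12.0 CPM on chow (−0.43 ± 0.079, adjusted p = 1.66e-04). Sem1, a small lid subunit, had 60.7 ± 8.60 CPM on western diet and 58.2 ± 6.12 CPM on chow (0.057 ± 0.082, adjusted p = 0.595); with library size alone it rose (0.18, adjusted p = 0.0361). None of the 5 chaperones of core assembly passed edgeR's test, and none had an unadjusted p under 0.05. Those with the largest differences were Psmg4 (0.17 ± 0.12), Psmg3 (0.074 ± 0.096) and Psmg2 (0.051 ± 0.080), and the list had a median log2 difference of 0.051.

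All 6 genes of Vcp, an unfoldase that readies substrates for the proteasome, and its cofactors fell. The cofactor Nploc4 had 140.2 ± 14.5 CPM on western diet and 218 ± 21.9 CPM on chow (−0.64 ± 0.074, adjusted p = 1.08e-06). Its partner Ufd1 and Vcp itself had log2 differences of −0.42 and −0.40. Of 6 shuttle factors, which carry ubiquitin-tagged proteins to the proteasome, 4 fell, among them Ubqln1 (−0.38), Ubqln4 (−0.36) and Rad23b (−0.35), and 1 did not pass. Ubqln2 rose (0.24 ± 0.076, adjusted p = 0.0151), and was named after its values were seen. All 5 tested deubiquitinases and partners of the proteasome fell, with the scaffold AI314180, also called Ecpas, at −0.54, the thioredoxin-like Txnl1 at −0.35, and the deubiquitinase Usp14 at −0.30; Paaf1 of that list was not analysed here.

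Among ubiquitin genes and activating enzymes, 4 were tested. Uba1, the main activating enzyme, fell (306 ± 29.6 CPM on western diet and 355 ± 31.2 CPM on chow, −0.21 ± 0.070, adjusted p = 0.0151), and 3 did not pass. Uba1 lost its call with library size alone (adjusted p = 0.299) and without western diet replicate 5 and chow replicate 2 together (adjusted p = 0.0574). Uba6, also an activating enzyme, had 15.3 ± 3.09 CPM on western diet and 14.4 ± 4.37 CPM on chow (0.098 ± 0.16, adjusted p = 0.633). Ubb, which encodes ubiquitin, had 174 ± 23.0 CPM on western diet and 179 ± 15.7 CPM on chow (−0.041 ± 0.078, adjusted p = 0.693), and its difference lay above 0 with library size alone (0.080).

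**Figure D5:**
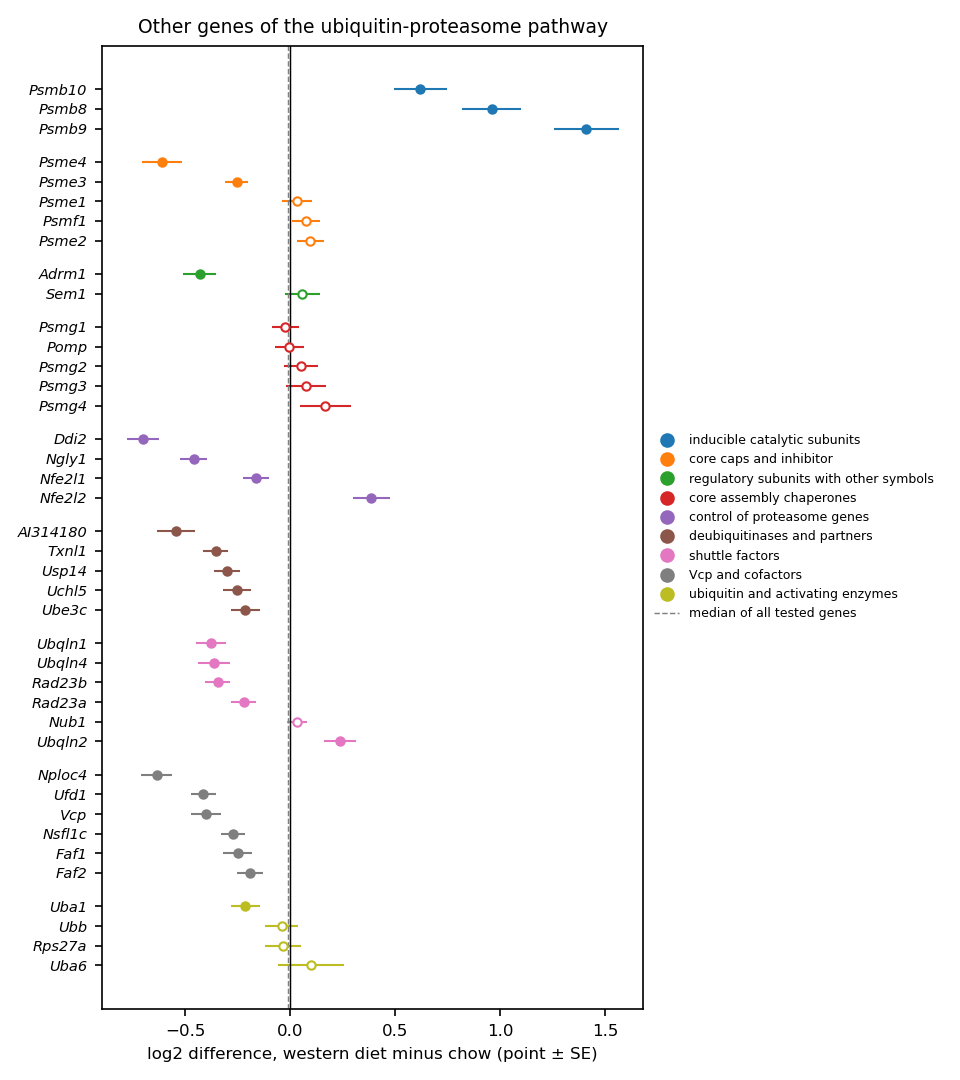
Log2 difference, western diet minus chow, with SE, of the 40 tested pathway genes outside the rule, grouped by list; filled points passed an adjusted p of 0.05, open points did not, and the dashed line is the median of all tested genes. Inducible catalytic subunits lie furthest right, Ddi2 furthest left, and chaperones of core assembly around 0.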

How the data were processed

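The authors deposited expected counts by gene symbol for each library; they rise in steps of 0.5 and carry no scaling. Tools named in the submitters' processing notes are STAR 2.4.1c, HOMER, FastQC and MultiQC, with build mm10. Options, strand setting and annotation release were not given in the sources used. Overlapping genes and near-identical copies can therefore share reads. Counts were rounded to whole numbers. Genes passing filterByExpr were fitted with edgeR 4.0.16 (R 4.3.3, limma 3.58.1) with TMM factors, robust glmQLFit and glmQLFTest on diet alone, two-sided, with Benjamini-Hochberg adjustment over all 13204 genes at 0.05. CPM use the TMM-scaled library sizes; log2 differences are western diet minus chow. For within-library ratios 0.5 was added to each count. The edgeR fit alone was tested on simulated counts, with changes in far fewer genes than were called here. That simulation does not bear on the scaling between libraries or on the ratio test.

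The members and lists were chosen with earlier results of these data known. Values are given by library for catalytic subunits, for the 3 lowest and 3 highest log2 differences of each particle, for Psmd4, Psmd14 and the assembly chaperones, for untested members, and for up to 3 genes of each pathway list; others were named after their values were seen. Positions come from RefSeq's table for GRCm38.p6, which is mm10, matched by symbol for all 36 members. Library pairs of a diet differed beyond sampling noise (chi-square per degree of freedom of at least 3.85). Alternatives were RLE factors, library size alone, DESeq2 1.42.0, limma-voom, no filter, a minimum of 1 CPM in 8 libraries, an adjusted p under 0.01, counts doubled in place of rounding, 2 counts added before ratios, and left-out libraries. Plots used Python 3.11.15 and matplotlib 3.10.9. Some genes of the pathway lists are not reported here.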

Additional observations from a re-analysis of the deposited data

Results flagged for a closer look

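In 136 groups of libraries checked, 4 held a library far from the others of its diet. Chance flags about 1 in 20 groups, so 4 is fewer than chance alone would give. Psmb6 was highest in chow replicate 8, at 167 CPM, while the remaining chow livers held 128 to 147 CPM. Psmb8 was also highest in chow replicate 8, at 54.4 CPM, while the rest ran from 23.3 to 38.4 CPM. Psme2 was highest in western diet replicate 1, at 70.7 CPM, while the remaining western diet livers held 54.2 to 60.2 CPM. Uba6 was highest in chow replicate 3, at 25.02 CPM, while the remaining chow livers held 10.7 to 15.5 CPM.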

How the results depend on the processing

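Over 17 fits that each left out 1 library, 14 core members and 18 regulatory members fell, 0 core and 2 regulatory members rose, the core median ran from −0.29 to −0.22 and the regulatory median from −0.37 to −0.33; of all genes 2802 to 3253 fell and 3067 to 3359 rose. The log2 differences of the ratios ran from 1.17 to 1.32 (Psmb8 to Psmb5), 1.60 to 1.78 (Psmb9 to Psmb6) and 0.87 to 1.03 (Psmb10 to Psmb7), with adjusted p up to 3.11e-04 (exact permutation). With library size alone 7 core members fell in place of 14, the medians were −0.13 (core) and −0.23 (regulatory), 1621 of all genes fell in place of 3122, and Ubb stood at 0.080 in place of −0.041. Without a low count filter, and at an adjusted p under 0.01, 1 regulatory member rose in place of 2; at 0.01, 12 core and 17 regulatory members fell, with Psmb1, Psmb4 and Psmd13 lost. With RLE factors, DESeq2, limma-voom, the other filters and doubled counts, the same 32 members fell. Of single members under single alternatives, 871 values kept direction and side of the threshold, 13 lost the call and 0 turned round. No paired analysis was possible because no label ties a western diet mouse to a chow mouse. Depth limits Psma8 and Psmb11, which were not tested.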
